A study of Mus musculus with 21 samples.

Results

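The genes described are 42 innate sensors of the mouse, their coreceptors and their adaptors, taken by name from a fixed list and found in the deposited count table, which holds 55471 genes. They comprise 5 surface Toll-like receptors (TLRs), 4 coreceptors of the TLR4 group, 7 endosomal TLRs with their chaperone, 8 adaptors and kinases of TLR signalling, 8 NOD-like receptors, 3 inflammasome components and 6 cytosolic nucleic acid sensors or their adaptors. Bulk RNA sequencing was done on dendritic cells (DCs) of an Aire reporter strain, in 21 libraries that form 7 groups of 3. Aire is a transcriptional regulator best known from thymic epithelium, and AGF is the submitters' name for the reporter. All mice were C57BL/6 of 6 weeks and labelled male, and every mouse carried the AGF-KI allele.

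The lymph node gave 4 groups from CD45+CD11c+MHCII+ cells: AGF+ and AGF- cells of AGF-KI/- mice, whose titles read AireKO, and AGF+ and AGF- cells of AGF-KI/+ mice, called KI/+ here. The bone marrow gave AGF+ cells of AireKO mice, AGF+ cells of KI/+ mice and total DCs of KI/+ mice. The titles call this last group total DC, whereas the series' design text names it AGF-, and the titles are followed here. Marrow AGF+ cells came from a B220-negative CD24+ gate with low or no CD11b, whereas marrow total DCs came from a B220-negative CD11c+MHCII+ gate. Gate and reporter therefore cannot be told apart in the marrow, nor gate and tissue between the organs. Per their genotype, KI/+ mice kept 1 unmodified Aire allele and AireKO mice none, and no group came from mice without the reporter. The labels name no Cre or cell type restriction of the allele.

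TLRs are membrane receptors for microbial products. Those on the cell surface bind lipids, lipoproteins and flagellin, while those in endosomes bind nucleic acids or parasite profilin and depend on UNC93B1 to reach the endosome. Nearly all signal through the adaptor MyD88 and the IRAK kinases to NF-kB and interferon regulatory factors, and subsets of DCs are known to differ in the receptors they carry. NOD-like receptors and the RNA and DNA sensors of the cytosol cover microbes that have entered the cell, through inflammasomes, MAVS or STING.

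Libraries held 4164451 to 6055097 counts, so a count of 0 allows up to 0.458 to 0.767 CPM in a library (CPM, counts scaled to a common effective library size), a limit for counting error only. Aire itself was at 22.8 to 26.6 CPM in AireKO and 99.0 to 132 CPM in KI/+ lymph node AGF+ cells. In marrow AGF+ cells it was at 11.5 to 19.7 CPM in AireKO and 79.6 to 116 CPM in KI/+, against 0.822 to 1.28 CPM in total DCs. In lymph node AGF- cells it was at 10.5 to 14.2 CPM in AireKO and 13.999 to 14.9 CPM in KI/+. The 7 libraries numbered 2 went against their male label, with Xist at 2028 to 4008 CPM, against 0 to 31.2 CPM in the other 14, and 4 Y-linked genes at a sum of 0 to 0.768 CPM, against 331 to 568 CPM in the other 14. Results were therefore also computed without those 7 libraries, and the calls that this ended are named with each comparison. Replicates differed by more than counting noise, with chi-square per degree of freedom between 4.04 and 17.9 over 21 pairs, and none was merged. The labels state independent biological replicates but not how AGF+ and AGF- sorts relate to animals.

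**Figure D1:**
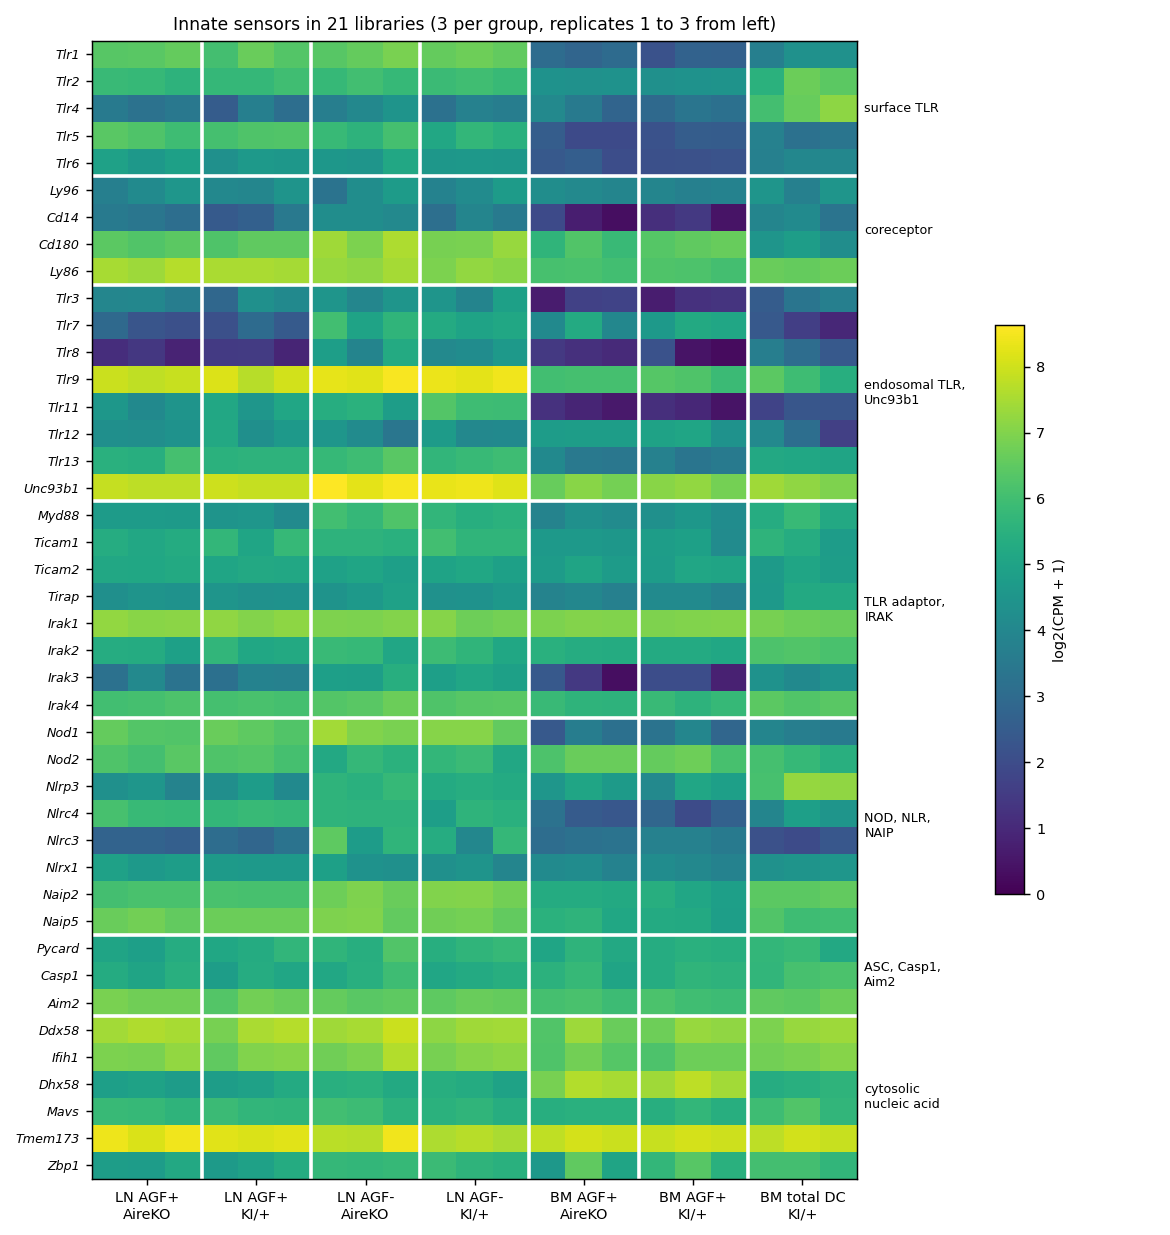
Level of each of the 42 genes (rows, grouped by role) in each of the 21 libraries (columns, replicates 1 to 3 from left within each group), as log2(CPM + 1). Tlr9, Unc93b1 and Tmem173 are bright in all lymph node columns, Tlr1, Tlr5, Tlr11 and Nod1 are dark in the marrow columns, and Tlr7, Tlr8 and Nlrc3 are dark in the lymph node AGF+ columns.

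Per length of exon, the most abundant of the 42 genes in lymph node AGF+ cells were Tmem173, which encodes the DNA-sensing adaptor STING, Unc93b1 and Tlr9, the receptor for CpG DNA. Tmem173 averaged 117 ± 12.7 CPM per kilobase in AireKO and 107 ± 3.49 CPM per kilobase in KI/+ lymph node AGF+ cells (SD, n = 3 each). Unc93b1 averaged 73.4 ± 3.01 CPM per kilobase in AireKO and 78.6 ± 3.02 CPM per kilobase in KI/+ cells, and Tlr9 averaged 67.4 ± 3.003 CPM per kilobase in AireKO and 72.4 ± 11.2 CPM per kilobase in KI/+ cells. The spreads of Unc93b1 and Tlr9 overlapped in the cells of both genotypes, so their order is not resolved. At the other end stood Tlr7, Nlrc3 and Tlr8, ranked 40, 41 and 42 of 42 in KI/+ cells, the last with 0.413 ± 0.147 CPM per kilobase. In marrow AGF+ cells Tmem173 again ranked first, at 89.3 ± 8.501 CPM per kilobase in AireKO and 91.0 ± 5.38 CPM per kilobase in KI/+, and Dhx58, the RIG-I-like receptor without signalling domains, ranked 2, at 50.01 ± 13.1 CPM per kilobase in AireKO and 56.4 ± 7.93 CPM per kilobase in KI/+. Tlr11 and Tlr3 held the lowest ranks there. Across the 7 groups, the mean CPM of Ticam2 varied 1.29-fold, of Irak1 1.33-fold, of Ly96 1.40-fold and of Mavs 1.46-fold, the least of the 42. Mean CPM varied most for Tlr11 (78.5-fold), Tlr8 (21.9-fold), Tlr5 (21.03-fold) and Tlr1 (20.5-fold). The smallest group means rest on few reads, with 13 counts over 3 libraries at the lowest.

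In the lymph node, AGF+ cells had less RNA than AGF- cells for the RNA-sensing receptors Tlr7 and Tlr8, for the NOD-like receptor Nlrc3, for Irak3 and Myd88, and for the profilin receptor Tlr11. They had more for Nod2 in both genotypes and for Tlr5 in KI/+. Of 42 genes tested with edgeR's quasi-likelihood test (Benjamini-Hochberg adjusted p under 0.05 over all genes), 1 rose and 17 fell in AireKO AGF+ cells, where 24.7% of all tested genes were called, 11.4% higher and 13.3% lower. In KI/+ cells 4 rose and 12 fell, where 21.1% of all tested genes were called, 10.1% higher and 10.99% lower. The median log2 fold change over the 42 genes was -0.35 in AireKO and -0.23 in KI/+, against 0.01 over all genes in each. All 12 genes that fell in KI/+ are among the 17 that fell in AireKO. The test of the difference between the genotypes called 0 of 42, where 0.0063% of all tested genes were called. The overlap of calls over all tested genes was not computed, so the shared calls are not read as particular to the 42 genes. These are bulk samples, in which fewer cells of a type and less RNA per cell cannot be told apart.

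Tlr7, a receptor for RNA in endosomes, had 6.71, 3.83 and 3.29 CPM in AireKO AGF+ libraries against 63.5, 31.4 and 49.3 CPM in AireKO AGF- libraries. In KI/+ it had 3.32, 7.02 and 4.38 CPM in AGF+ libraries against 37.4, 30.8 and 34.6 CPM in AGF- libraries. Every AGF+ library lay below every AGF- library of its genotype. Tlr7 fell by 3.35 in AireKO (adjusted p = 7.68e-06, quasi-likelihood test) and by 2.79 in KI/+ (adjusted p = 4.41e-05), both on the log2 scale. Its neighbour Tlr8, a related RNA receptor, had 1.17, 1.61 and 0.822 CPM in AireKO AGF+ libraries against 27.5, 13.9 and 37.6 CPM in AireKO AGF- libraries. In KI/+ the values of Tlr8 were 1.74, 1.83 and 0.876 CPM in AGF+ libraries against 15.6, 17.2 and 23.5 CPM in AGF- libraries. The AGF+ libraries thus lay close to the level that a few counts give. The fitted log2 fold change of Tlr8 was -4.42 ± 0.41 in AireKO and -3.60 ± 0.40 in KI/+ (SE), with adjusted p of 5.91e-06 and 3.31e-05 (edgeR). The genes lie side by side on the X chromosome in the GRCm38 annotation, Tlr8 at chrX:167242696-167264329 and Tlr7 at chrX:167304929-167330558, both on the minus strand. Of the profilin receptors, Tlr11 had 22.6, 16.1 and 21.2 CPM in AireKO AGF+ libraries against 40.3, 44.5 and 26.7 CPM in AireKO AGF- libraries. In KI/+ Tlr11 had 35.1, 22.3 and 33.3 CPM in AGF+ libraries against 78.6, 61.3 and 60.02 CPM in AGF- libraries. The groups did not overlap in either genotype, and Tlr11 fell by 0.90 in AireKO (adjusted p = 0.00986) and by 1.14 in KI/+ (adjusted p = 0.00215, edgeR). Its partner Tlr12 averaged 18.98 ± 1.02 CPM in AireKO AGF+ against 16.03 ± 6.31 CPM in AGF- cells, and 26.2 ± 8.65 CPM in KI/+ AGF+ against 18.96 ± 5.57 CPM in AGF- cells (SD, n = 3 each), and passed the test in neither genotype.

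Promoter windows of genes in this group are shown because Tlr8, Tlr11 and Nlrc3 differed in the same direction in the lymph node sorts. They run from 250 bases before to 50 bases after the RefSeq start on build GRCm38.p6, written in the direction of transcription, at chrX:167264280-167264579 (minus strand) for Tlr8, chr14:50357664-50357963 (plus strand) for Tlr11 and chr16:3976583-3976882 (minus strand) for Nlrc3. Capitals mark matches, on either strand, to a core of PU.1 sites (GAGGAA) or of interferon-stimulated response elements (GAAA, any 2 bases, GAAA).
Tlr8: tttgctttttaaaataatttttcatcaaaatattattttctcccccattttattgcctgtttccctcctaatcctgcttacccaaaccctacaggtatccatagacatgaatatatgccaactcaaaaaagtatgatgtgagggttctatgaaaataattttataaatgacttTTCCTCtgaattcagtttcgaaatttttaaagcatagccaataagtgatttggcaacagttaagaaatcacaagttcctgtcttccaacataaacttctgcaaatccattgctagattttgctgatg
Tlr11: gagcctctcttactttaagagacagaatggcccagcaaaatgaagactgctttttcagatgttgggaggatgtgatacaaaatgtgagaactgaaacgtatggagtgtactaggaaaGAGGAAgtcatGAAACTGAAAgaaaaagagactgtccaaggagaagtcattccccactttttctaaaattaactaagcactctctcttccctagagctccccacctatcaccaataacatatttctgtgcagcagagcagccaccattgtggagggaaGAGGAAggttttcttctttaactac
Nlrc3: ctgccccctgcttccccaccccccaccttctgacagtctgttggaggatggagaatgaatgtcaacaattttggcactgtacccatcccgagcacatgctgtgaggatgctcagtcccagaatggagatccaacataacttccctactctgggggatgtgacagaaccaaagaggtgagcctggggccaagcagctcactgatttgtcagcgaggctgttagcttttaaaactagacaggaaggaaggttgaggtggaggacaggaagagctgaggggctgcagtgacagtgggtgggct
The Tlr8 window holds 1 match to the PU.1 core, the Tlr11 window holds 2 to that core and 1 to the interferon element, which does not overlap them, and the Nlrc3 window holds none. Over the 42 windows found for 33 of the 42 genes, the PU.1 core occurred in 28.6%, against 28.3% of all 32851 mouse windows. The interferon element occurred in 11.9% of the 42 windows (Ddx58, Ifih1, Myd88, Tlr11 and Tlr6), against 3.4% of all windows, and a kappa B core (GGG, any 2 bases, TTTCC) in 2.4% (Tlr3), against 1.6%. A match is a string of letters and no evidence of binding.

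The remaining endosomal receptors differed less. Tlr9 had 242, 223 and 239.5 CPM in AireKO AGF+ libraries against 316, 302 and 373 CPM in AireKO AGF- libraries, and 286, 209 and 260.1 CPM in KI/+ AGF+ libraries against 328, 308 and 348 CPM in KI/+ AGF- libraries. Again no AGF+ library reached an AGF- library of its genotype, and Tlr9 fell by 0.49 in AireKO (adjusted p = 0.00946) and by 0.38 in KI/+ (adjusted p = 0.0413, edgeR). The chaperone gene Unc93b1 had 233, 216 and 219 CPM in AireKO AGF+ libraries against 394, 307 and 364 CPM in AireKO AGF- libraries, and 248, 231 and 236 CPM in KI/+ AGF+ libraries against 327, 342 and 294 CPM in KI/+ AGF- libraries. It fell by 0.68 in AireKO (adjusted p = 5.34e-04) and by 0.43 in KI/+ (adjusted p = 0.0127, edgeR), without overlap. Tlr3, which binds duplex RNA, averaged 13.7 ± 1.72 CPM in AireKO AGF+ against 19.2 ± 4.004 CPM in AGF- cells and 13.8 ± 6.71 CPM in KI/+ AGF+ against 21.5 ± 7.65 CPM in AGF- cells (SD, n = 3 each). Tlr13, which binds bacterial ribosomal RNA, averaged 50.4 ± 14.1 CPM in AireKO AGF+ against 66.0 ± 15.9 CPM in AGF- cells and 46.1 ± 1.12 CPM in KI/+ AGF+ against 55.2 ± 5.41 CPM in AGF- cells. Neither passed the test in either genotype, although Tlr13 did in AireKO without AGF+ replicate 3 (-0.64, adjusted p = 0.0265) and with the replicate block (adjusted p = 0.0338, edgeR). Tlr3 passed in KI/+ with no filter on low counts (-0.64, adjusted p = 0.0449, edgeR).

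Among surface receptors, Tlr5, the flagellin receptor, was the one that rose, and only in KI/+ did it pass the test. It had 85.4, 74.3 and 61.1 CPM in AireKO AGF+ libraries against 55.4, 46.5 and 66.5 CPM in AireKO AGF- libraries, which overlap. In KI/+ it had 66.5, 75.2 and 76.9 CPM in AGF+ libraries against 35.4, 52.0 and 43.9 CPM in AGF- libraries, which do not. The log2 fold change was 0.39 in AireKO (95% interval 0.02 to 0.77, adjusted p = 0.118) and 0.73 in KI/+ (95% interval 0.35 to 1.11, adjusted p = 0.00919), and the difference between the genotypes did not pass its own edgeR test (adjusted p = 0.99999). The lipoprotein receptors Tlr1, Tlr2 and Tlr6 and the lipopolysaccharide receptor Tlr4 passed in neither genotype. Tlr2 averaged 52.2 ± 5.30 CPM in AireKO AGF+ against 57.1 ± 5.16 CPM in AGF- cells and 55.9 ± 5.33 CPM in KI/+ AGF+ against 58.1 ± 3.64 CPM in AGF- cells. Tlr1 averaged 87.4 ± 6.19 CPM in AireKO AGF+ against 98.7 ± 18.2 CPM in AGF- cells and 80.8 ± 16.99 CPM in KI/+ AGF+ against 98.0 ± 7.08 CPM in AGF- cells. The interval of the Tlr2 log2 fold change was -0.41 to 0.15 in AireKO and -0.34 to 0.22 in KI/+. Tlr6 averaged 27.5 ± 3.58 CPM in AireKO AGF+ against 26.5 ± 7.81 CPM in AGF- cells, and 22.1 ± 2.69 CPM in KI/+ AGF+ against 22.8 ± 0.302 CPM in AGF- cells. Tlr4 averaged 9.63 ± 1.07 CPM in AireKO AGF+ against 16.1 ± 4.67 CPM in AGF- cells, and 8.21 ± 3.76 CPM in KI/+ AGF+ against 10.95 ± 2.44 CPM in AGF- cells (SD, n = 3 each). In AireKO the Tlr4 libraries did not overlap, with a log2 fold change of -0.73 (95% interval -1.395 to -0.07, adjusted p = 0.0998). It passed there with no filter on low counts (-0.74, adjusted p = 0.0374, edgeR).

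The coreceptors went separate ways. Cd180, a TLR4 relative without the signalling domain, had 86.9, 76.9 and 86.3 CPM in AireKO AGF+ libraries against 168, 121 and 188 CPM in AireKO AGF- libraries, and 74.4, 90.9 and 90.9 CPM in KI/+ AGF+ libraries against 115, 119 and 155 CPM in KI/+ AGF- libraries. No AGF+ library reached an AGF- library of its genotype, and Cd180 fell by 0.93 in AireKO (adjusted p = 0.00102) and by 0.60 in KI/+ (adjusted p = 0.0187, edgeR). Ly86, whose product MD-1 pairs with CD180, had 179, 164 and 203 CPM in AireKO AGF+ libraries against 155, 145 and 174 CPM in AireKO AGF- libraries, and 182, 184 and 176 CPM in KI/+ AGF+ libraries against 119.8, 149 and 136 CPM in KI/+ AGF- libraries. Ly86 rose by 0.42 in KI/+ (adjusted p = 0.0190), while in AireKO its log2 fold change was 0.20 (adjusted p = 0.219, edgeR). Cd14, which hands lipopolysaccharide to TLR4, had 10.6, 9.47 and 7.61 CPM in AireKO AGF+ libraries against 17.6, 17.9 and 15.6 CPM in AireKO AGF- libraries. In KI/+ Cd14 had 4.43, 5.19 and 10.3 CPM in AGF+ libraries against 7.79, 14.2 and 10.6 CPM in AGF- libraries, which overlap. It fell by 0.88 in AireKO (adjusted p = 0.0409) and had a log2 fold change of -0.75 in KI/+ (adjusted p = 0.109), or -1.18 without AGF+ replicate 3 (adjusted p = 0.0150, edgeR). Ly96, whose product MD-2 binds lipopolysaccharide with TLR4, averaged 16.9 ± 4.90 CPM in AireKO AGF+ against 17.4 ± 8.38 CPM in AGF- cells and 16.96 ± 3.56 CPM in KI/+ AGF+ against 18.5 ± 6.44 CPM in AGF- cells, and passed in neither.

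Of the signalling adaptors and kinases, Myd88, the adaptor shared by nearly all TLRs, had 25.7, 25.4 and 25.1 CPM in AireKO AGF+ libraries against 63.5, 53.0 and 76.0 CPM in AireKO AGF- libraries. In KI/+ it had 21.2, 21.96 and 16.4 CPM in AGF+ libraries against 50.5, 41.9 and 44.3 CPM in AGF- libraries. These values were far apart in both genotypes, and Myd88 fell by 1.34 in AireKO (adjusted p = 3.26e-05) and by 1.19 in KI/+ (adjusted p = 1.33e-04, edgeR). Irak3, whose product restrains TLR signalling, had 8.39, 15.7 and 8.84 CPM in AireKO AGF+ libraries against 28.3, 27.7 and 41.3 CPM in AireKO AGF- libraries. In KI/+ Irak3 had 8.07, 13.3 and 12.7 CPM in AGF+ libraries against 28.1, 33.2 and 28.6 CPM in AGF- libraries. Again no library crossed, and Irak3 fell by 1.57 in AireKO (adjusted p = 5.55e-04) and by 1.41 in KI/+ (adjusted p = 0.00152, edgeR). Irak4, the first kinase recruited by MyD88, averaged 68.0 ± 4.41 CPM in AireKO AGF+ against 88.1 ± 12.6 CPM in AGF- cells and 68.0 ± 2.39 CPM in KI/+ AGF+ against 80.8 ± 5.59 CPM in AGF- cells, and fell by 0.38 in AireKO (adjusted p = 0.0338, edgeR). The kinase genes Irak1 and Irak2 and the adaptors Ticam1 (TRIF), Ticam2 (TRAM) and Tirap passed in neither genotype, with log2 fold changes between -0.44 (Irak2, AireKO) and 0.25 (Irak1, KI/+). Irak1 averaged 141 ± 8.44 CPM in AireKO AGF+ against 124 ± 5.29 CPM in AGF- cells, and 138 ± 8.08 CPM in KI/+ AGF+ against 116 ± 13.4 CPM in AGF- cells. Irak2 averaged 35.6 ± 5.89 CPM in AireKO AGF+ against 48.1 ± 12.6 CPM in AGF- cells, and 40.5 ± 8.41 CPM in KI/+ AGF+ against 47.5 ± 13.02 CPM in AGF- cells, and in AireKO the replicate block gave it an adjusted p of 0.0373 (edgeR). Ticam1, the adaptor of TLR3, averaged 37.8 ± 2.212 CPM in AireKO AGF+ against 45.3 ± 1.61 CPM in AGF- cells, and 46.1 ± 11.7 CPM in KI/+ AGF+ against 53.7 ± 8.29 CPM in AGF- cells. Exons of Myd88 share 11.3% of their length with Acaa1a on the opposite strand and those of Ticam2 share 14.5% with Tmed7. Shared exon length was 12.8% for Pycard, 11.9% for Nlrx1, 9.84% for Tirap, 7.87% for Irak4, 7.32% for Tlr3, 5.99% for Irak3, 4.44% for Irak2, 4.04% for Cd180 and 2.99% for Irak1. Since the counting's strand setting was not given in the sources used here, reads from such stretches cannot be assigned with certainty.

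Nlrc3, a NOD-like receptor known in mice to restrain STING and TLR signalling, had 5.70, 5.64 and 5.14 CPM in AireKO AGF+ libraries against 88.0, 26.2 and 48.7 CPM in AireKO AGF- libraries. In KI/+ Nlrc3 had 7.44, 6.25 and 8.76 CPM in AGF+ libraries against 39.4, 14.98 and 52.6 CPM in AGF- libraries. The AGF- libraries varied over a wide range, yet each exceeded every AGF+ library, and Nlrc3 fell by 3.30 in AireKO (adjusted p = 1.99e-04) and by 2.26 in KI/+ (adjusted p = 0.00310, edgeR). Nlrp3, the sensor of the best-known inflammasome, had 19.1, 22.4 and 13.4 CPM in AireKO AGF+ libraries against 48.0, 43.5 and 53.8 CPM in AireKO AGF- libraries. In KI/+ Nlrp3 had 18.04, 26.4 and 16.2 CPM in AGF+ libraries against 37.9, 40.7 and 37.5 CPM in AGF- libraries. It fell, without overlap, by 1.40 in AireKO (adjusted p = 2.05e-04) and by 0.93 in KI/+ (adjusted p = 0.00473, edgeR). Naip2, which detects secretion system proteins and acts through NLRC4, fell by 0.69 in AireKO (adjusted p = 6.85e-04) and by 0.83 in KI/+ (adjusted p = 2.18e-04, edgeR). It averaged 68.1 ± 2.88 CPM in AireKO AGF+ against 109 ± 12.8 CPM in AGF- cells and 68.8 ± 0.689 CPM in KI/+ AGF+ against 122 ± 11.3 CPM in AGF- cells, and Naip genes are close copies between which the counting could split reads. Nod2, the muramyl dipeptide sensor, moved the other way, with 75.7, 65.9 and 85.3 CPM in AireKO AGF+ libraries against 35.6, 52.7 and 44.1 CPM in AireKO AGF- libraries. In KI/+ Nod2 had 75.0, 78.9 and 67.0 CPM in AGF+ libraries against 51.7, 57.5 and 35.0 CPM in AGF- libraries. Nod2 rose by 0.77 in AireKO (adjusted p = 0.00683) and by 0.61 in KI/+ (adjusted p = 0.0289, edgeR). Nod1, its relative, averaged 84.0 ± 10.1 CPM in AireKO AGF+ against 138 ± 28.2 CPM in AGF- cells and 88.5 ± 11.4 CPM in KI/+ AGF+ against 119.7 ± 22.3 CPM in AGF- cells. It fell by 0.72 in AireKO (adjusted p = 0.00756) and was at -0.44 in KI/+ (adjusted p = 0.0951), where the fit with the replicate number as a block gave an adjusted p of 0.00978 (edgeR). Leaving out KI/+ AGF- replicate 3 brought Nod1 past the threshold as well, at -0.58 (adjusted p = 0.0404, edgeR). Nlrc4, the inflammasome partner of the NAIPs, Nlrx1, a mitochondrial family member, and Naip5, a flagellin sensor, passed in neither genotype. Nlrc4 averaged 59.1 ± 8.11 CPM in AireKO AGF+ against 46.9 ± 0.783 CPM in AGF- cells, and 53.1 ± 2.36 CPM in KI/+ AGF+ against 39.7 ± 10.9 CPM in AGF- cells, without overlap in either genotype. Naip5 averaged 100.1 ± 8.35 CPM in AireKO AGF+ against 115 ± 18.05 CPM in AGF- cells, and 102 ± 0.347 CPM in KI/+ AGF+ against 104 ± 9.62 CPM in AGF- cells. Nlrx1 averaged 27.0 ± 2.76 CPM in AireKO AGF+ against 22.6 ± 5.46 CPM in AGF- cells, and 24.7 ± 0.554 CPM in KI/+ AGF+ against 18.1 ± 3.45 CPM in AGF- cells.

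STING's gene Tmem173 had 336, 281 and 345 CPM in AireKO AGF+ libraries against 211, 208 and 344 CPM in AireKO AGF- libraries, and 299, 282 and 299 CPM in KI/+ AGF+ libraries against 188, 206 and 182 CPM in KI/+ AGF- libraries. It rose by 0.61 in KI/+ (adjusted p = 0.0163), and in AireKO, where the groups overlapped, the log2 fold change was 0.34 (adjusted p = 0.150), or 0.60 without AGF- replicate 3 (adjusted p = 0.00208, edgeR). Zbp1, a sensor of left-handed nucleic acid helices, had 26.8, 26.4 and 35.8 CPM in AireKO AGF+ libraries against 52.4, 51.0 and 53.8 CPM in AireKO AGF- libraries, and 25.0, 29.9 and 38.3 CPM in KI/+ AGF+ libraries against 58.6, 48.2 and 43.3 CPM in KI/+ AGF- libraries. Zbp1 fell by 0.83 in AireKO (adjusted p = 0.00331) and by 0.69 in KI/+ (adjusted p = 0.0119, edgeR). Dhx58 averaged 28.5 ± 2.05 CPM in AireKO AGF+ against 41.4 ± 3.87 CPM in AGF- cells and fell by 0.54 (adjusted p = 0.0249, edgeR). The inflammasome adaptor Pycard averaged 33.3 ± 5.51 CPM in AireKO AGF+ against 55.8 ± 18.7 CPM in AGF- cells and fell by 0.74 (adjusted p = 0.0224, edgeR). In KI/+ Dhx58 and Pycard had log2 fold changes of -0.24 and -0.23 and did not pass. The RNA sensors Ddx58 (RIG-I) and Ifih1, their adaptor Mavs, the DNA sensor Aim2 and the protease Casp1 passed in neither genotype, with log2 fold changes between -0.28 (Casp1, AireKO) and 0.31 (Aim2, AireKO). Ddx58 averaged 179.9 ± 11.2 CPM in AireKO AGF+ against 196 ± 42.5 CPM in AGF- cells, and 167 ± 45.9 CPM in KI/+ AGF+ against 161 ± 17.3 CPM in AGF- cells. Ifih1 averaged 129 ± 18.1 CPM in AireKO AGF+ against 141 ± 48.3 CPM in AGF- cells, and 117 ± 22.4 CPM in KI/+ AGF+ against 130.3 ± 13.9 CPM in AGF- cells. Aim2 averaged 110.2 ± 6.72 CPM in AireKO AGF+ against 88.9 ± 5.08 CPM in AGF- cells, and 96.2 ± 16.6 CPM in KI/+ AGF+ against 94.6 ± 4.92 CPM in AGF- cells. In AireKO the Aim2 libraries did not overlap, with an interval of the log2 fold change of 0.03 to 0.59, though it missed the adjusted threshold.

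**Figure D2:**
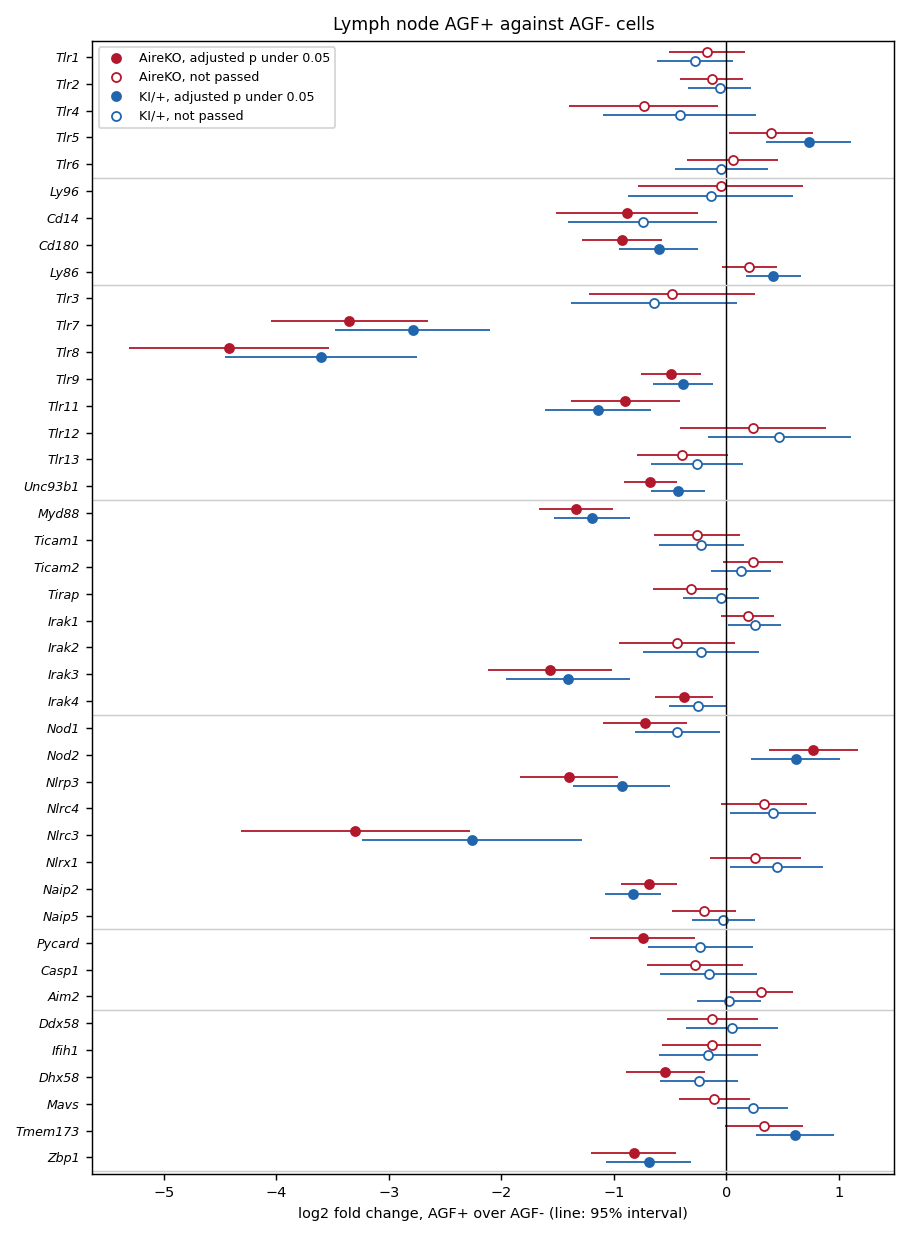
Log2 fold change of each of the 42 genes in lymph node AGF+ over AGF- cells, in AireKO (red) and KI/+ (blue), with its 95% interval and filled points for adjusted p under 0.05. Tlr7, Tlr8 and Nlrc3 lie farthest to the left in both genotypes, and the filled points right of 0 are Nod2 in both and Tlr5, Ly86 and Tmem173 in KI/+.

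Not every call was equally firm. In AireKO 11 of 18 calls held in all alternative settings (Cd180, Irak3, Myd88, Naip2, Nlrc3, Nlrp3, Nod2, Tlr7, Tlr8, Tlr9 and Unc93b1), and in KI/+ 9 of 16 did (Irak3, Myd88, Naip2, Nlrc3, Nlrp3, Tlr11, Tlr5, Tlr7 and Tlr8). Without the libraries numbered 2, the AireKO calls of Cd14, Dhx58, Irak4, Nod1 (adjusted p = 0.0673), Pycard, Tlr11 and Zbp1 (0.0689) were lost, as were the KI/+ calls of Ly86, Nod2, Tlr9, Tmem173, Unc93b1 and Zbp1, which left 10 genes lower in AireKO and 1 higher in KI/+. Leaving out any one of several single libraries also ended some AireKO calls: every AireKO AGF+ library in turn and AGF- replicate 1 or 2 for Cd14 (highest adjusted p = 0.165), AGF- replicate 1 or 2 and AGF+ replicate 1 or 3 for Dhx58 (0.158), AGF- replicate 3 and every AGF+ library, and also the use of no filter, for Irak4 (0.166), AGF- replicate 3 and AGF+ replicate 1 or 2 for Pycard (0.103) and AGF+ replicate 2 for Tlr11 (0.125). In KI/+ the same was seen for AGF- replicate 3 or AGF+ replicate 1 with Cd180 (highest adjusted p = 0.0980), AGF- replicate 1 or 3 or AGF+ replicate 1 with Ly86 (0.0905), AGF- replicate 1 or 3 or AGF+ replicate 1 or 2 with Nod2 (0.130), AGF- replicate 1 or 3 or AGF+ replicate 3 with Tmem173 (0.0638), AGF- replicate 2 with Unc93b1 (0.130) and AGF- replicate 1 or AGF+ replicate 1 with Zbp1 (0.107). The KI/+ call of Tlr9 ended without any AGF- library or without AGF+ replicate 2 or 3, and also under scaling by library size alone (0.197). Values are from edgeR's quasi-likelihood test.

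Markers of other cell types moved with the sort, where 24.7% of all tested genes were called in AireKO and 21.1% in KI/+. Markers of monocytes and macrophages (14 genes) summed to 292 to 606 CPM in AireKO AGF+ against 2109.6 to 2999 CPM in AGF- cells, and to 425 to 574 CPM in KI/+ AGF+ against 2095 to 2298 CPM in AGF- cells. Of these, 9 fell in AireKO and 8 fell in KI/+, and 0 rose. Markers of B cells (10 genes) summed to 80.2 to 96.0 CPM in AireKO AGF+ against 506 to 1099.6 CPM in AGF- cells, and to 70.1 to 102 CPM in KI/+ AGF+ against 354 to 781 CPM in AGF- cells. All 10 fell in AireKO and 8 fell in KI/+. Markers of T and NK cells fell for 10 of 10 in each genotype, with Gzmb at 0 counts in both AGF+ groups. Of plasmacytoid DC markers, 6 of 10 fell in AireKO and 5 in KI/+, with 1 higher in each. Of type 1 conventional DC markers, 7 of 10 fell and 1 rose in AireKO, and 8 fell and 0 rose in KI/+. Of type 2 conventional DC markers, 7 of 10 fell in AireKO and 6 in KI/+, with 1 higher in each. The 1 higher was Esam in both genotypes (log2 fold change 1.8965 ± 0.198 in AireKO, 1.9328 ± 0.199 in KI/+, SE). Of mature migratory DC markers, 3 of 10 were higher in AireKO and 1 in KI/+ (Tmem150c), where 10.1% of all tested genes were called higher, and 0 fell in each. They summed to 3561 to 4965 CPM in AireKO AGF+ against 1730 to 3842 CPM in AGF- cells. In KI/+ the sums were 3552 to 6240.5 CPM against 3556 to 4896.5 CPM, and they overlapped in both genotypes. Markers of neutrophils summed to 7.86 to 13.4 CPM in AireKO AGF+ against 51.7 to 91.1 CPM in AGF- cells, and to 13.9 to 14.3 CPM in KI/+ AGF+ against 55.4 to 67.8 CPM in AGF- cells, with S100a8 and S100a9 at 0 counts in both AGF+ groups, and the 1 marker abundant enough to test fell. Those of eosinophils, basophils and mast cells summed to 17.2 to 20.6 CPM in KI/+ AGF+ against 13.2 to 15.6 CPM in AGF- cells, and to 15.8 to 19.7 CPM in AireKO AGF+ against 12.1 to 24.2 CPM in AGF- cells, which overlap, with 2 of 4 tested higher and 2 lower in each genotype. Mitochondrial genes took 1.47% to 1.61% of counts in AireKO AGF+ against 1.63% to 2.18% in AGF- libraries, and 0.984% to 1.31% in KI/+ AGF+ against 1.61% to 2.31% in AGF- libraries, without overlap. The part of these cell types and of the mitochondrial share in the sensor results was not tested.

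In the bone marrow, AGF+ cells had less RNA than total DCs for all 5 surface TLRs, for Cd14, Irak3 and Tlr3, and for the inflammasome genes Nlrp3 and Nlrc4. They had more for Tlr7, Dhx58, Cd180, Nlrc3 and Tlr12. Of the 42 genes, 6 rose and 23 fell, where 44.4% of all tested genes were called, 22.8% higher and 21.6% lower. The median log2 fold change was -0.50 over the 42 and 0.02 over all genes. Scaling by library size alone moved the median over all genes to 0.13 and made 61.6% of the called genes higher, against 51.3% with TMM scaling, and then 7 of the 42 rose and 21 fell.

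Tlr4 had 6.76, 9.22 and 8.05 CPM in KI/+ AGF+ libraries against 65.0, 96.4 and 144 CPM in total DC libraries, and Tlr2 had 19.04, 19.98 and 20.6 CPM in AGF+ libraries against 44.7, 102 and 85.9 CPM in total DC libraries. Tlr1 had 3.48, 5.57 and 5.37 CPM in AGF+ libraries against 12.2, 19.5 and 19.7 CPM in total DC libraries. For each of these receptors every AGF+ library lay below every total DC library. Tlr6 had 3.28, 3.46 and 3.58 CPM in AGF+ libraries against 12.4, 14.8 and 14.9 CPM in total DC libraries, and Tlr5 had 3.48, 4.80 and 4.65 CPM in AGF+ libraries against 12.8, 8.22 and 9.29 CPM in total DC libraries, again without overlap. Tlr4 fell by 3.65 (adjusted p = 1.69e-05), Tlr6 by 2.01 (3.98e-05), Tlr2 by 1.96 (1.15e-04), Tlr1 by 1.82 (1.99e-04) and Tlr5 by 1.21 (0.00437), on the log2 scale with edgeR's adjusted p. Tlr1 and Tlr6 are similar in sequence, so reads may be split between them. The coreceptor gene Cd14 had 1.23, 1.73 and 0.358 CPM in AGF+ libraries against 14.1, 16.7 and 8.90 CPM in total DC libraries and fell by 3.56 (adjusted p = 4.14e-04, edgeR). Ly86 averaged 71.1 ± 5.63 CPM in AGF+ cells against 99.0 ± 3.63 CPM in total DCs and fell by 0.47 (adjusted p = 0.00546, edgeR), while Ly96 did not pass (-0.47, adjusted p = 0.0982) except without total DC replicate 2 (-0.69, adjusted p = 0.0117, edgeR). Cd180 went the other way, with 80.9, 91.3 and 96.8 CPM in AGF+ libraries against 21.4, 26.7 and 17.8 CPM in total DC libraries. It rose by 2.04 (adjusted p = 1.97e-05, edgeR).

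Endosomal receptors were split in the marrow. Tlr7 had 23.5, 37.1 and 33.3 CPM in AGF+ libraries against 4.28, 2.06 and 0.968 CPM in total DC libraries, and it rose by 3.70 (adjusted p = 1.16e-04, edgeR), or by 4.37 without total DC replicate 1. Tlr12 had 30.1, 32.3 and 19.9 CPM in AGF+ libraries against 15.6, 7.61 and 2.13 CPM in total DC libraries, and it rose by 1.72 (adjusted p = 0.00863, edgeR), or by 2.50 without total DC replicate 1. The groups did not overlap for either gene. Tlr8, by contrast, had 3.48, 0.384 and 0.179 CPM in AGF+ libraries against 11.8, 7.40 and 4.26 CPM in total DC libraries. It fell by 2.55 (adjusted p = 0.00950, edgeR). AGF+ replicate 1 made this fall smaller, since the log2 fold change without it was -4.67 (adjusted p = 3.63e-04, edgeR). Tlr3 had 0.614, 1.34 and 1.43 CPM in AGF+ libraries against 4.71, 9.25 and 12.2 CPM in total DC libraries and fell by 2.90 (adjusted p = 7.13e-04, edgeR). Tlr11 averaged 0.849 ± 0.446 CPM in AGF+ cells against 3.377 ± 0.887 CPM in total DCs and fell by 1.98 (adjusted p = 0.00412, edgeR). Tlr13 averaged 10.9 ± 1.86 CPM in AGF+ cells against 33.7 ± 2.01 CPM in total DCs and fell by 1.62 (adjusted p = 1.20e-04, edgeR). Tlr9 averaged 71.3 ± 12.04 CPM in AGF+ cells against 63.1 ± 22.5 CPM in total DCs, and Unc93b1 averaged 132 ± 19.3 CPM in AGF+ cells against 145 ± 22.6 CPM in total DCs. Neither passed the test, with 95% intervals of -0.30 to 0.68 for Tlr9 and -0.48 to 0.22 for Unc93b1 on the log2 scale.

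Signalling genes were lower or did not pass. Irak3 had 3.07, 3.07 and 0.716 CPM in AGF+ libraries against 20.3, 16.2 and 20.1 CPM in total DC libraries and fell by 3.05 (adjusted p = 6.77e-04, edgeR). Myd88 had 19.04, 22.5 and 17.2 CPM in AGF+ libraries against 39.4, 55.3 and 36.0 CPM in total DC libraries and fell by 1.14 (adjusted p = 8.57e-04, edgeR). In both genes each AGF+ library was below each total DC library. Tirap, which bridges TLR2 and TLR4 to MyD88, fell by 1.07 (adjusted p = 0.00105), Irak2 by 0.99 (6.50e-05), Ticam1 by 0.65 (0.0455) and Irak4 by 0.64 (0.00208, edgeR). Irak2 averaged 36.6 ± 2.29 CPM in AGF+ cells against 73.4 ± 3.17 CPM in total DCs, and Tirap averaged 15.4 ± 1.91 CPM in AGF+ cells against 32.7 ± 7.40 CPM in total DCs. Ticam1 averaged 24.1 ± 6.39 CPM in AGF+ cells against 38.0 ± 11.01 CPM in total DCs, and its groups overlapped. Irak1 averaged 126 ± 3.73 CPM in AGF+ cells against 107 ± 8.01 CPM in total DCs and Ticam2 averaged 30.5 ± 3.76 CPM in AGF+ cells against 28.2 ± 3.94 CPM in total DCs. Neither passed, although Irak1 did without total DC replicate 1 (0.31, adjusted p = 0.0269, edgeR).

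Among NOD-like receptors, Nlrp3 had 15.8, 33.0 and 27.9 CPM in AGF+ libraries against 68.0, 154 and 145 CPM in total DC libraries. Nlrc4 had 6.14, 2.88 and 5.37 CPM in AGF+ libraries against 14.3, 28.2 and 21.5 CPM in total DC libraries. Nlrp3 fell by 2.25 (adjusted p = 2.60e-04) and Nlrc4 by 2.14 (6.07e-04, edgeR), without overlap between the groups. The NLRC4 partners fell too, Naip2 by 1.36 (adjusted p = 3.65e-05) and Naip5 by 0.96 (0.00108, edgeR). Nlrc3 had 12.7, 12.9 and 10.6 CPM in AGF+ libraries against 3.42, 2.88 and 4.07 CPM in total DC libraries and rose by 1.80 (adjusted p = 6.54e-05, edgeR). Nod2 had 94.6, 104 and 68.4 CPM in AGF+ libraries against 67.4, 54.5 and 43.0 CPM in total DC libraries and rose by 0.71 (adjusted p = 0.0146, edgeR). For both, the lowest AGF+ library stayed above the highest total DC library. Naip2 averaged 34.3 ± 6.63 CPM in AGF+ cells against 88.8 ± 3.74 CPM in total DCs, and Naip5 averaged 34.1 ± 5.72 CPM in AGF+ cells against 66.9 ± 8.94 CPM in total DCs. Nod1 averaged 9.82 ± 4.17 CPM in AGF+ cells against 12.2 ± 1.76 CPM in total DCs and did not pass. Nlrx1 did not pass either (-0.45, adjusted p = 0.0547), although it did with the replicate block (adjusted p = 0.0441) and without AGF+ replicate 1 (0.0454) or total DC replicate 1 (0.0449, edgeR).

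Dhx58 stood out among the cytosolic sensors, with 168, 215 and 171 CPM in AGF+ libraries against 39.1, 42.3 and 48.2 CPM in total DC libraries. It rose by 2.10 (adjusted p = 1.37e-05, edgeR), and no AGF+ library came near the total DC libraries. Exons of Dhx58 share 4.31% of their length with the antisense gene Dhx58os. The receptors that signal through Mavs did not pass: Ddx58 averaged 135 ± 27.0 CPM in AGF+ cells against 146 ± 23.5 CPM in total DCs, and Ifih1 averaged 94.9 ± 17.99 CPM in AGF+ cells against 121 ± 11.6 CPM in total DCs. For Ifih1 the replicate block gave an adjusted p of 0.0411. Mavs itself fell by 0.48 (adjusted p = 0.0348) and Aim2 by 0.53 (0.00579, edgeR). Tmem173 averaged 249.3 ± 14.7 CPM in AGF+ cells against 238 ± 22.6 CPM in total DCs and Zbp1 averaged 59.5 ± 21.1 CPM in AGF+ cells against 60.2 ± 8.73 CPM in total DCs, and neither passed. Casp1 averaged 45.0 ± 5.31 CPM in AGF+ cells against 63.3 ± 11.3 CPM in total DCs and did not pass, with an adjusted p of 0.0408 under the replicate block and 0.0204 without total DC replicate 1 (edgeR), and Pycard did not pass either (-0.18, adjusted p = 0.458).

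Of the 29 marrow calls, 21 held in all alternatives. Without the libraries numbered 2 the calls of Aim2 (highest adjusted p = 0.0680), Ly86 (0.0666), Tlr11 (0.0675), Tlr12 (0.126) and Tlr8 (0.111) were lost, and so were those of Mavs, Nod2 and Ticam1. Nod2 was also lost without AGF+ replicate 2 or total DC replicate 3 (0.159), Mavs without AGF+ replicate 1 or 3 or total DC replicate 2 (0.159), and Ticam1 without any of these or total DC replicate 1 (0.155), the last pair also under library size alone. The marker counts of this comparison are read beside the 22.8% of all tested genes called higher and the 21.6% called lower. Monocyte and macrophage markers summed to 135 to 245 CPM in KI/+ AGF+ against 1388 to 1939 CPM in total DC libraries, and 12 of 13 tested fell. Plasmacytoid DC markers summed to 1819.6 to 2014 CPM in AGF+ against 655 to 775 CPM in total DC libraries, and 8 of 10 rose. B cell markers summed to 217 to 264 CPM in AGF+ against 27.9 to 39.4 CPM in total DC libraries, and 7 of 8 tested rose. Conventional DC type 2 markers summed to 269 to 383 CPM in AGF+ against 989 to 1315 CPM in total DC libraries, and type 1 markers to 1042 to 1269 CPM against 902 to 1640.4 CPM. T and NK cell markers summed to 58.7 to 106 CPM in AGF+ against 12.4 to 24.5 CPM in total DC libraries, with Trbc1, Trbc2 and Ncr1 at 0 counts in both. Only 2 of these 10 markers were tested, Gzma (log2 fold change 4.76 ± 0.90) and Gzmb (2.13 ± 0.33, SE), and both rose. Of 8 tested type 1 conventional DC markers 3 rose, Cadm1 among them (log2 fold change 4.21 ± 0.26, SE). The 2 that fell were Naaa (-3.13 ± 0.40) and Ppt1 (-0.55 ± 0.18). Clec9a, a defining marker of type 1 conventional DCs, had 1 count over the KI/+ AGF+ libraries and 7 over the total DC libraries. Mitochondrial genes took 2.54% to 2.84% of counts in KI/+ AGF+ against 3.28% to 3.57% in total DC libraries. The part of these cell types, of the mitochondrial share and of the differing gates in the marrow results was not tested.

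**Figure D3:**
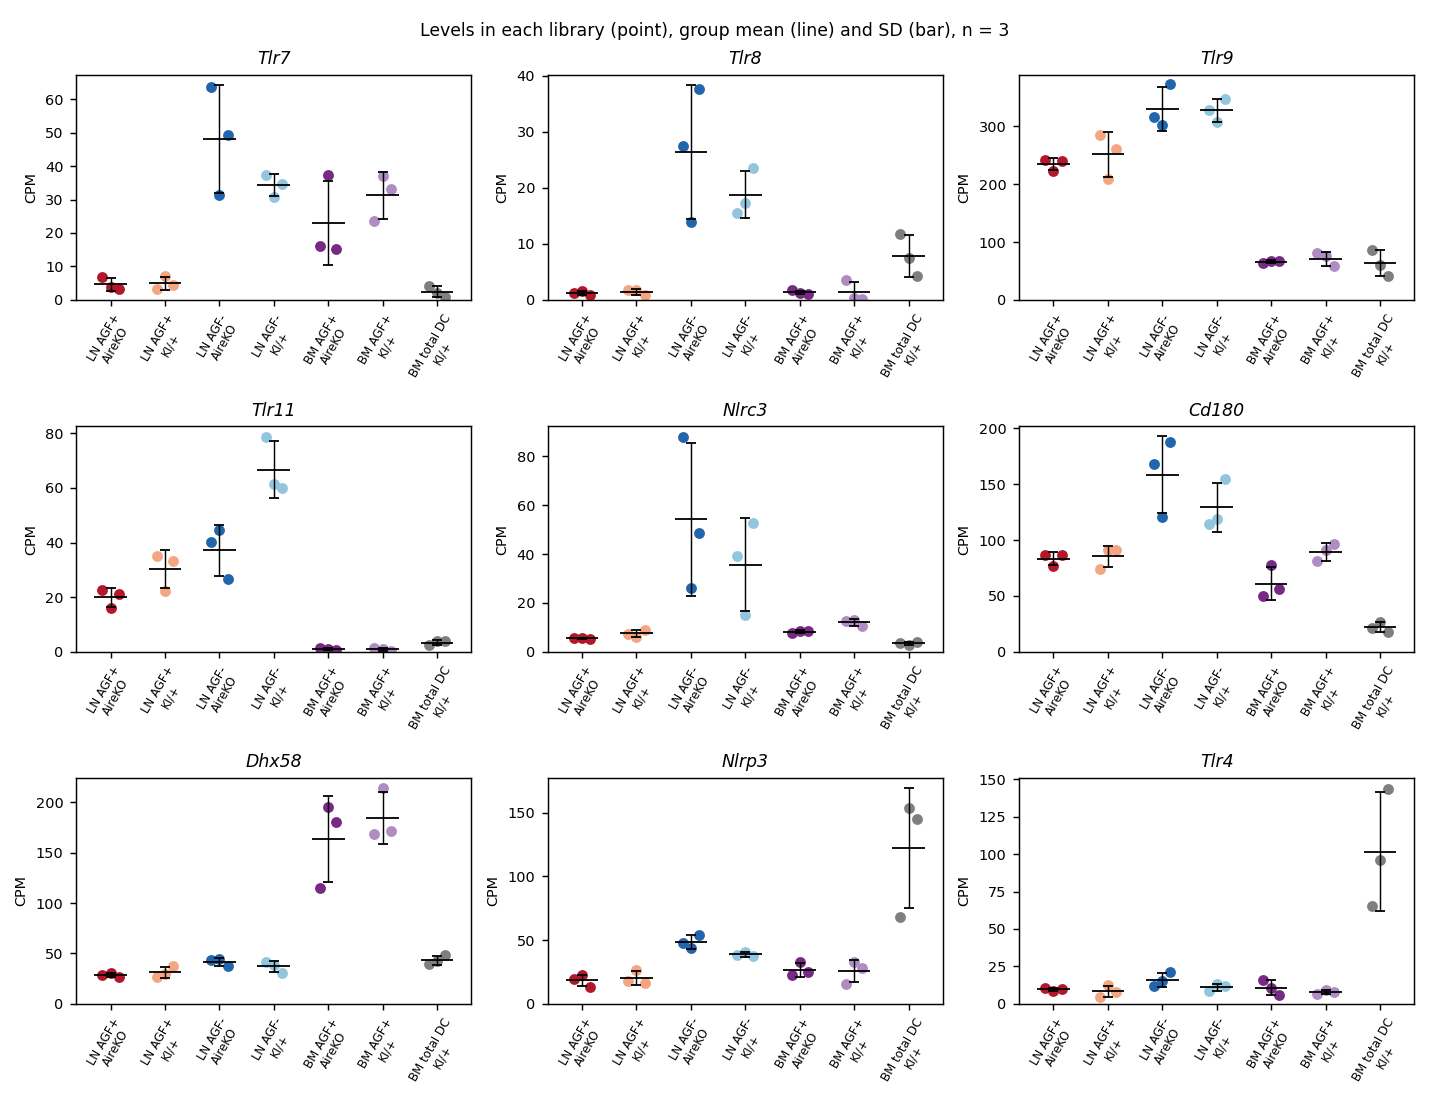
CPM in each library (points), with the mean (line) and SD (bar) of each group of 3, for 9 of the 42 genes. Tlr7, Nlrc3 and Cd180 are lower in lymph node AGF+ than in AGF- cells and higher in marrow AGF+ than in total DCs, Tlr8 is low in both AGF+ populations, Dhx58 is highest in marrow AGF+ cells, and Nlrp3 and Tlr4 are highest in total DCs.

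The reporter contrast differed between the organs for a number of these genes. The interaction asks whether the log2 difference of AGF+ over AGF- cells in the lymph node exceeds that of AGF+ cells over total DCs in the marrow, in KI/+ mice. It was called for 22 of the 42 genes, 18 above 0 and 4 below, where 20.97% of all tested genes were called, 9.75% above and 11.2% below. The 4 below 0 were Tlr7 (-6.48 ± 0.60, or -7.15 without total DC replicate 1, adjusted p = 2.46e-07), Nlrc3 (-4.05 ± 0.59, 4.51e-05), Cd180 (-2.63 ± 0.27, 7.98e-07) and Dhx58 (-2.34 ± 0.26, 2.24e-06, log2 interaction ± SE, edgeR). Tlr7, Nlrc3 and Cd180 had fallen in lymph node AGF+ cells and risen in marrow AGF+ cells, whereas Dhx58 had passed the test in KI/+ cells of the marrow alone. All 5 surface TLRs were above 0, led by Tlr4 (3.25 ± 0.50, adjusted p = 7.51e-05), then Tlr6 (1.98 ± 0.30, 5.90e-05), Tlr5 (1.95 ± 0.31, 1.30e-04), Tlr2 (1.91 ± 0.28, 4.55e-05) and Tlr1 (1.55 ± 0.29, 6.16e-04, edgeR). Of these, Tlr5 rose in the lymph node and fell in the marrow, as did Ly86, while Tlr1, Tlr2, Tlr4 and Tlr6 passed the test in the marrow only, so for them the interaction is the test of that difference. Cd14 (2.83 ± 0.65, adjusted p = 0.00341) and Nlrc4 (2.57 ± 0.38, 5.47e-05, edgeR) were also above 0, Cd14 at 3.47 when the libraries numbered 2 were left out. Tlr8, Tlr11, Myd88 and Nod2 changed in the same direction in both organs, and their interaction did not pass. Irak3, Naip2 and Nlrp3 also fell in both organs, but their interaction passed, with the larger fall in the marrow. It was 1.65 for Irak3, 0.55 for Naip2 and 1.33 for Nlrp3. Of the 22 calls, 13 held in all alternatives, and the other 9 were lost in at least 1 of them, each without the libraries numbered 2, which left 9 above 0. Tirap (adjusted p = 0.119) and Tlr13 (0.0750) were lost in that setting alone. Scaling by library size alone also ended the calls of Aim2, Irak3, Mavs and Naip2, the use of no filter those of Aim2, Mavs, Naip2 and Nlrx1, and the filter of 10 counts that of Irak3. Single libraries also ended the calls of Nlrx1 (lymph node AGF- replicate 3, highest adjusted p = 0.122), Tlr3 (marrow AGF+ replicate 1, total DC replicate 3 or lymph node AGF+ replicate 2, 0.234) and Nlrp3 (marrow AGF+ replicate 1, total DC replicate 2 or 3, or lymph node AGF+ replicate 2, 0.168). Mavs was lost without marrow AGF+ replicate 1 or 3, total DC replicate 2, lymph node AGF- replicate 1 or 3, or lymph node AGF+ replicate 1 (0.144). Naip2 was lost without marrow AGF+ replicate 2 or 3, total DC replicate 3, lymph node AGF- replicate 1 or 3, or any lymph node AGF+ library (0.211). Aim2 was lost without marrow AGF+ replicate 2 or 3, total DC replicate 3, any lymph node AGF- library, or lymph node AGF+ replicate 2 or 3 (0.288), and Irak3 without marrow AGF+ replicate 3, any total DC or lymph node AGF- library, or lymph node AGF+ replicate 2 or 3 (0.156). Conversely, Tlr9 (-0.86, adjusted p = 0.00805) and Tlr12 (-2.03, 0.00828) passed without total DC replicate 1 and Irak2 (0.94, 0.0291, edgeR) without lymph node AGF- replicate 1. The reference gates differ between the organs, and that part cannot be told apart from the organ.

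**Figure D4:**
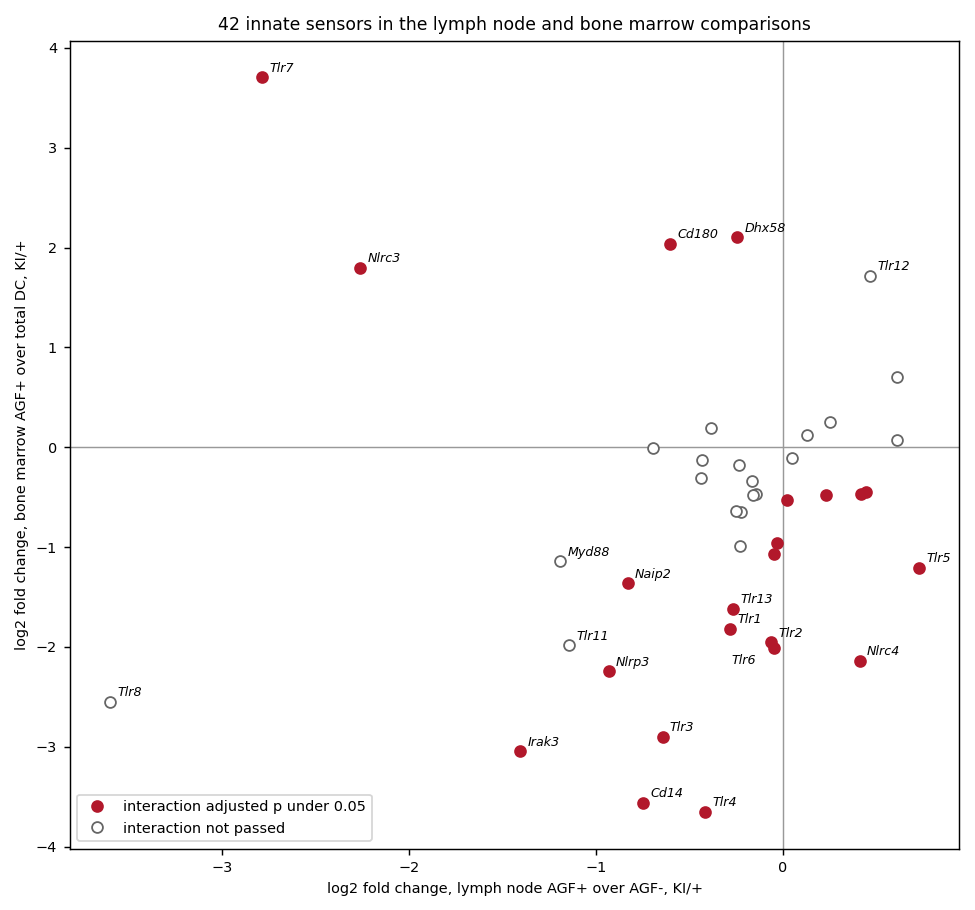
Log2 fold change in lymph node AGF+ over AGF- cells (horizontal) and in marrow AGF+ cells over total DCs (vertical), KI/+, for the 42 genes, with filled points for an interaction that passed (adjusted p under 0.05). Tlr7, Nlrc3, Cd180 and Dhx58 lie at the upper left, most filled points lie below 0 on the vertical axis, and Tlr8 lies at the lower left with an open point.

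Lymph node AGF+ cells had more RNA than marrow AGF+ cells for most surface receptors and for Tlr11, Tlr3, Tlr13, Tlr9, Nod1 and Nlrc4, and less for Tlr7 and Dhx58. In AireKO, 27 of 42 rose and 2 fell in lymph node cells, where 51.4% of all tested genes were called, 25.7% higher and 25.7% lower. In KI/+, 20 rose and 3 fell, where 54.2% of all tested genes were called, 27.2% higher and 27.1% lower. Median log2 fold changes over the 42 were 0.59 in AireKO and 0.35 in KI/+, against 0.04 over all genes in each. With scaling by library size alone the medians over all genes were 0.19 in AireKO and 0.20 in KI/+, with 60.1% and 59.9% of called genes higher, against 49.98% and 50.1% with TMM scaling, and 29 and 25 of the 42 rose while 2 fell in each.

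Tlr11 had the largest fitted log2 fold change of the 42 in KI/+, and in AireKO it and Tlr5 were closer than their SE, so their order there is not resolved. It had 22.6, 16.1 and 21.2 CPM in lymph node against 1.32, 0.858 and 0.511 CPM in marrow AireKO libraries, and 35.1, 22.3 and 33.3 CPM in lymph node against 1.23, 0.961 and 0.358 CPM in marrow KI/+ libraries, the marrow values being those of a few counts. Its log2 fold change was 4.39 ± 0.36 in AireKO (adjusted p = 4.04e-09) and 5.14 ± 0.35 in KI/+ (2.71e-10, edgeR). Tlr5 had 85.4, 74.3 and 61.1 CPM in lymph node against 4.90, 2.79 and 2.81 CPM in marrow AireKO libraries, and 66.5, 75.2 and 76.9 CPM in lymph node against 3.48, 4.80 and 4.65 CPM in marrow KI/+ libraries. It rose by 4.36 in AireKO (adjusted p = 2.58e-11) and by 4.07 in KI/+ (3.59e-11, edgeR), with a wide gap between the groups. Tlr1 had 83.6, 84.2 and 94.6 CPM in lymph node against 7.35, 6.004 and 7.16 CPM in marrow AireKO libraries, and 65.4, 99.0 and 78.0 CPM in lymph node against 3.48, 5.57 and 5.37 CPM in marrow KI/+ libraries. It rose by 3.67 in AireKO (adjusted p = 5.58e-11) and by 4.06 in KI/+ (2.00e-11, edgeR). Tlr6 rose by 2.72 in AireKO and 2.67 in KI/+ and Tlr2 by 1.39 and 1.49, whereas Tlr4 passed in neither (-0.18 in AireKO, 0.04 in KI/+). The coreceptor genes Cd14 and Ly86 rose in both genotypes, Cd14 by 2.76 in AireKO and 2.55 in KI/+ and Ly86 by 1.43 and 1.35. The Cd14 value was 4.22 without AireKO marrow replicate 1 and, in KI/+, 3.16 without the libraries numbered 2.

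Among endosomal receptors Tlr3 rose by 3.07 in AireKO and 3.56 in KI/+, Tlr13 by 2.05 and 2.08, Tlr9 by 1.83 and 1.82, and Unc93b1 by 0.95 and 0.86, with edgeR's adjusted p of at most 2.90e-05. Tlr7 fell by 2.28 in AireKO (adjusted p = 9.65e-05) and by 2.66 in KI/+ (1.08e-05, edgeR), and in AireKO its log2 fold change was -1.64 without the libraries numbered 2. Tlr8 and Tlr12 passed in neither genotype, although Tlr8 did in KI/+ without marrow replicate 1 (2.35, adjusted p = 0.0291, edgeR). Nod1 had 95.6, 79.6 and 76.9 CPM in lymph node against 4.33, 11.6 and 8.18 CPM in marrow AireKO libraries, and 99.4, 89.5 and 76.7 CPM in lymph node against 8.80, 14.4 and 6.26 CPM in marrow KI/+ libraries. Nod1 rose by 3.40 in AireKO (adjusted p = 5.79e-09) and by 3.17 in KI/+ (8.51e-09, edgeR), with no overlap. Nlrc4 rose by 3.34 in AireKO and 3.46 in KI/+, Naip5 by 1.24 and 1.59, Naip2 by 0.85 and 1.01, and Nlrx1 by 0.79 and 0.69. Irak3 rose by 2.27 in AireKO (3.34 without marrow replicate 1) and by 2.32 in KI/+. Dhx58 fell by 2.52 in AireKO (adjusted p = 1.04e-09) and by 2.56 in KI/+ (6.64e-10, edgeR), without overlap. Zbp1 fell by 0.94 in KI/+ (adjusted p = 0.0224) and was at -0.71 in AireKO (0.0890, edgeR).

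Between the genotypes, all 20 genes that rose in KI/+ are among the 27 that rose in AireKO. The other 7 rose in AireKO alone, namely Cd180 by 0.45, Ddx58 by 0.65, Ifih1 by 0.54, Myd88 by 0.63, Ticam2 by 0.36, Tirap by 0.54 and Tmem173 by 0.39. A difference from KI/+ was shown for none of them, since the test of genotype by tissue called 0 of 42, and 0.0% of all tested genes. The overlap of calls over all tested genes was not computed here either, so the 20 shared calls are not read as particular to the 42 genes. In AireKO 20 of 29 calls held in all alternatives. Without the libraries numbered 2 the calls of Ticam1 (highest adjusted p = 0.0626), Irak4, Ticam2 and Tirap were lost. Irak4 was also lost without marrow replicate 3 and with no filter (0.111), and Myd88 without marrow replicate 1 (0.0764). Cd180 (0.255) and Ticam2 (0.211) were lost without marrow replicate 1 or 3 or any lymph node AGF+ library, and both by DESeq2's Wald test. Cd180 was also lost with DESeq2 size factors and with the filter of 10 counts, and Ticam2 with no filter. Ddx58 (0.179) was lost without marrow replicate 1 or 3 or lymph node replicate 2 or 3, Ifih1 (0.169) and Tmem173 (0.164) without marrow replicate 1 or 3 or lymph node replicate 1 or 3, and Tirap (0.119) without marrow replicate 1 or 3 or lymph node replicate 2 and with no filter. In KI/+ 19 of 23 calls held. Aim2 (0.0685) and Nlrx1 (0.0535) were lost without the libraries numbered 2, as were Irak4 (0.293), also without replicate 2 of either organ and with no filter, and Zbp1 (0.143), also without marrow replicate 2 or lymph node replicate 1 or 2 and under library size alone. Zbp1 passed in AireKO without marrow replicate 1 (-1.07, adjusted p = 0.00925) or 3 (-0.95, 0.0358), and Casp1 passed in KI/+ without lymph node replicate 2 (-0.60, 0.0394, edgeR). Markers of other cell types moved between the organs too. Plasmacytoid DC markers summed to 799 to 869.9 CPM in lymph node against 1793 to 1998 CPM in marrow AireKO AGF+ libraries, and to 849 to 919 CPM against 1819.6 to 2014 CPM in KI/+, where 0 of 10 tested were higher and 7 lower in AireKO, and 0 higher and 8 lower in KI/+. B cell markers summed to 80.2 to 96.0 CPM in lymph node against 214 to 278 CPM in marrow AireKO AGF+ libraries, and to 70.1 to 102 CPM against 217 to 264 CPM in KI/+, where 2 of 10 tested were higher and 5 lower in AireKO, and 3 higher and 5 lower in KI/+. Type 2 conventional DC markers summed to 486 to 624 CPM in lymph node against 333 to 447 CPM in marrow AireKO AGF+ libraries, and to 519 to 638 CPM against 269 to 383 CPM in KI/+, where 5 of 10 tested were higher and 2 lower in AireKO, and 6 higher and 2 lower in KI/+, while for type 1 markers 3 of 10 tested were higher and 2 lower in AireKO, and 4 higher and 2 lower in KI/+. Monocyte and macrophage markers summed to 292 to 606 CPM in lymph node against 182 to 299.6 CPM in marrow AireKO AGF+ libraries, and to 425 to 574 CPM against 135 to 245 CPM in KI/+, where 5 of 14 tested were higher and 2 lower in AireKO, and 4 higher and 2 lower in KI/+. T and NK cell markers summed to 5.20 to 18.7 CPM in lymph node against 81.1 to 129 CPM in marrow AireKO AGF+ libraries, and to 4.73 to 8.98 CPM against 58.7 to 106 CPM in KI/+, where 1 of 10 tested were higher and 2 lower in AireKO, and 1 higher and 2 lower in KI/+. In both genotypes the 2 lower were Gzmb, at 0 counts in lymph node AGF+ cells, and Gzma (log2 fold change -4.45 ± 1.62 in AireKO, -7.16 ± 1.62 in KI/+, SE). The 1 higher was Cd3e (3.44 ± 1.24 in AireKO, 3.37 ± 1.34 in KI/+). Of mature migratory DC markers 4 of 10 tested were higher and 3 lower in AireKO, and 5 higher and 2 lower in KI/+, of eosinophil, basophil and mast cell markers 1 of 6 tested were higher and 3 lower in AireKO, and 1 higher and 4 lower in KI/+, and of neutrophil markers 1 of 4 tested were higher and 2 lower in AireKO, and 1 higher and 0 lower in KI/+. Mitochondrial genes took 1.47% to 1.61% of counts in lymph node against 3.14% to 3.52% in marrow AireKO AGF+ libraries, and 0.984% to 1.31% against 2.54% to 2.84% in KI/+. The part of these cell types and of the mitochondrial share was not tested.

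**Figure D5:**
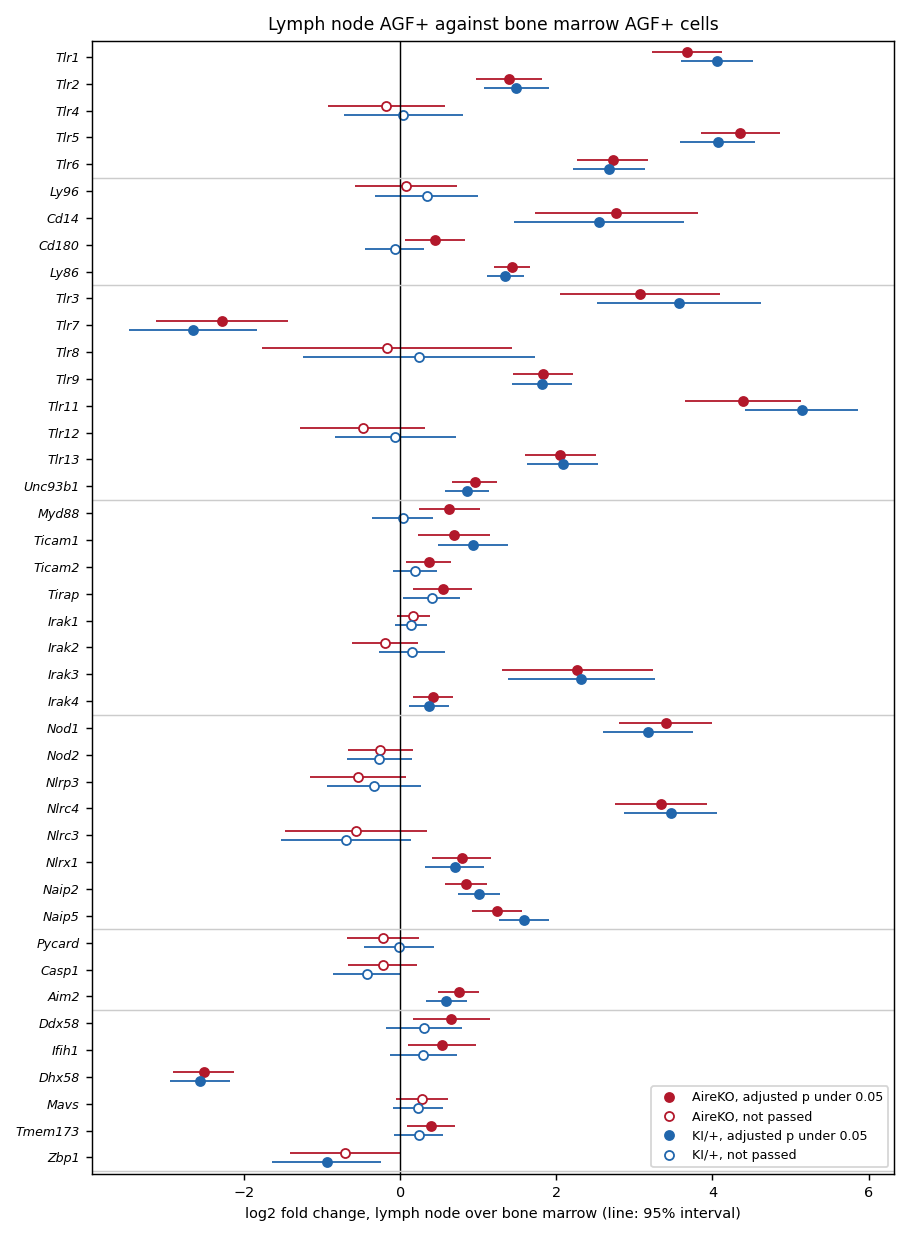
Log2 fold change of each of the 42 genes in lymph node over marrow AGF+ cells, in AireKO (red) and KI/+ (blue), with its 95% interval and filled points for adjusted p under 0.05. Tlr1, Tlr3, Tlr5, Tlr11, Nod1 and Nlrc4 lie to the right of 3 in both genotypes, and Tlr7 and Dhx58 lie farthest to the left.

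Loss of Aire left no call among the 42 genes at this depth. In lymph node AGF+ cells 0 of 42 passed, where 0.0126% of all tested genes were called, with 1 at an unadjusted p under 0.05 in edgeR and 0 by DESeq2. In lymph node AGF- cells 0 of 42 passed, where 0.0063% of all tested genes were called, with 5 at an unadjusted p under 0.05 and 0 by DESeq2. In marrow AGF+ cells 0 of 42 passed, where 0.0129% of all tested genes were called (0.00645% higher and 0.00645% lower), with 2 at an unadjusted p under 0.05 and 0 by DESeq2. The interactions of genotype with sort (0.0063% of all tested genes called) and with tissue (0.0%) called 0 of 42 each by edgeR and by DESeq2, with 0 and 1 at an unadjusted p under 0.05. The typical precision was moderate, with a median half-width of the 95% interval of 0.38 in lymph node AGF+ cells, 0.38 in AGF- cells and 0.45 in marrow AGF+ cells on the log2 scale, and differences larger than these also missed the threshold adjusted over all genes, that of Tlr11 in AGF- cells among them. In AGF+ cells of the lymph node the log2 changes ran between -0.60 (Tlr11) and 0.49 (Cd14).

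Tlr11 was the gene nearest to a change. In lymph node AGF- cells it had 40.3, 44.5 and 26.7 CPM in AireKO libraries against 78.6, 61.3 and 60.02 CPM in KI/+ libraries, which do not overlap. In lymph node AGF+ cells it had 22.6, 16.1 and 21.2 CPM in AireKO libraries against 35.1, 22.3 and 33.3 CPM in KI/+ libraries, which do. The log2 fold change was -0.60 in AGF+ cells (95% interval -1.09 to -0.11, adjusted p = 0.967) and -0.85 in AGF- cells (95% interval -1.32 to -0.39, adjusted p = 0.798, edgeR). With no filter on low counts the AGF- value passed, at an adjusted p of 9.08e-04, in a fit that called 270 genes where the filtered fit called 1. Myd88 had 25.7, 25.4 and 25.1 CPM in AireKO AGF+ libraries against 21.2, 21.96 and 16.4 CPM in KI/+ AGF+ libraries, and 63.5, 53.0 and 76.0 CPM in AireKO AGF- libraries against 50.5, 41.9 and 44.3 CPM in KI/+ AGF- libraries. The AireKO libraries were higher throughout, yet the adjusted p was 0.967 in AGF+ and 0.798 in AGF- cells (edgeR). In marrow AGF+ cells Cd180 had 49.6, 77.8 and 56.0 CPM in AireKO libraries against 80.9, 91.3 and 96.8 CPM in KI/+ libraries, and Nlrc3 had 7.54, 8.36 and 8.69 CPM in AireKO libraries against 12.7, 12.9 and 10.6 CPM in KI/+ libraries. Both had an unadjusted p under 0.05 and an adjusted p of 0.9998 (edgeR), so neither difference held up against the number of genes tested. No cell type marker was called between the genotypes. In lymph node AGF- cells all 10 mature migratory DC markers were below 0, with 8 at an unadjusted p under 0.05 (edgeR). The share of all tested genes at that unadjusted p is not given here. They summed to 1730 to 3842 CPM in AireKO against 3556 to 4896.5 CPM in KI/+ libraries, which overlap. In AGF+ cells all 10 were below 0 too, with 1 at an unadjusted p under 0.05 (edgeR). In AGF- cells 13 of 14 monocyte and macrophage markers, all 10 B cell markers and all 10 T and NK cell markers were above 0. The part of cell types in the genotype contrasts was not tested.

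Genes that act around these sensors were followed by list. Of 16 tested C-type lectin sensors in the lymph node, 1 rose and 10 fell in AireKO AGF+ cells, and 0 rose and 10 fell in KI/+, with median log2 fold changes of -2.36 and -1.90 against 0.01 over all genes. Cd209a, a DC-SIGN relative, had a log2 fold change of -5.35 ± 0.38 in AireKO and -4.89 ± 0.36 in KI/+, and Clec9a, which binds actin of dead cells, of -3.78 ± 0.39 and -3.95 ± 0.38 (SE). Clec9a and Cd209a are also on the lists of conventional DC markers. In the marrow 2 of 15 rose and 12 fell, among them Clec12a (-4.98 ± 0.41) and Fcer1g (-1.66 ± 0.15), the common receptor gamma chain. Of 25 tested genes of downstream signalling, 1 rose and 2 fell in AireKO and 1 rose and 2 fell in KI/+, against the 24.7% and 21.1% of all genes called in those genotypes. Those that fell in both were the interferon regulatory factors Irf8 (-2.12 ± 0.33 in AireKO, -1.62 ± 0.32 in KI/+) and Irf7 (-1.75 ± 0.27 and -1.35 ± 0.27), and the one that rose was the kinase gene Ikbkb in AireKO (0.32 ± 0.11) and Ikbke in KI/+ (0.85 ± 0.19). In the marrow 3 of these 25 rose and 5 fell, with Tnfaip3, the NF-kB inhibitor, at 0.97 ± 0.12 and Irf5 at -0.61 ± 0.10.

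Of 12 tested inflammasome effectors in the lymph node, 0 rose and 3 fell in AireKO, and 0 rose and 2 fell in KI/+. These are 25.0% and 16.7% called, near the 24.7% and 21.1% of all tested genes, and not read as a result about the list. Those that fell in both were Mefv (pyrin, -2.86 ± 0.23 in AireKO, -2.67 ± 0.23 in KI/+) and the cytokine gene Il1b (-2.70 ± 0.33 and -2.09 ± 0.33). In the marrow 0 of 10 rose and 7 fell, where 44.4% of all tested genes were called. Nlrp1b was at -2.31 ± 0.21 there and Nek7, an NLRP3 partner, at -0.97 ± 0.14. The interleukin-18 gene Il18 was higher in lymph node than in marrow AGF+ cells, at 4.90 ± 0.46 in AireKO and 5.09 ± 0.45 in KI/+, where marrow libraries of each genotype held 6 counts in all. It is one of 5 effectors of 12 that rose between the organs in each genotype, while 2 fell. That is 58.3% called, against 51.4% of all tested genes in AireKO and 54.2% in KI/+. Of 13 tested partners in nucleic acid sensing, 1 rose and 6 fell in AireKO lymph node AGF+ cells and 2 rose and 3 fell in KI/+. The interferon-inducible DNA-binding genes Ifi204 (-2.20 ± 0.35 in AireKO, -1.73 ± 0.34 in KI/+) and Ifi205 (-2.48 ± 0.42 and -2.24 ± 0.42) were lower in both. In the marrow Cgas, the DNA sensor upstream of STING, rose (0.82 ± 0.20), one of 3 that rose and 2 that fell of 12. That is 41.7% called, near the 44.4% of all tested genes. Of 10 tested chaperones and proteases of the endosomal TLRs, 1 rose and 4 fell in AireKO and 1 rose and 1 fell in KI/+, with Hsp90b1, the chaperone of most TLRs, at -0.74 ± 0.17 in AireKO and -0.70 ± 0.18 in KI/+. In the marrow 2 of 11 rose and 7 fell, among them the protease Ctss (-1.44 ± 0.17). Of 9 tested cytokines and chemokines that TLRs induce, 0 rose and 4 fell in AireKO and 0 rose and 3 fell in KI/+ lymph node AGF+ cells, Cxcl10 among them (-1.54 ± 0.49 in AireKO, -1.66 ± 0.48 in KI/+). In marrow AGF+ cells Il12a, a subunit of interleukin-12, was at 7.78 to 15.4 CPM in KI/+ against 0 to 0.214 CPM in total DCs, which held 1 count in all and allow no firm ratio, and 2 of 9 rose while 5 fell. Between the organs 4 of 11 rose and 2 fell in AireKO (54.5% called), and 6 rose and 2 fell in KI/+ (72.7%). Il6 and Il12a were lower and Tnf was higher in lymph node AGF+ cells of both genotypes, with Il6 at -5.86 ± 0.40 in AireKO and -5.13 ± 0.37 in KI/+, and Tnf at 2.80 ± 0.42 and 2.63 ± 0.38. The other lists are read beside the 51.4% of all tested genes called between the organs in AireKO and the 54.2% in KI/+. Of C-type lectin sensors 8 of 17 rose and 2 fell in AireKO (58.8% called) and 9 rose and 2 fell in KI/+ (64.7%). Of nucleic acid partners 2 of 13 rose and 6 fell in AireKO (61.5%) and 1 rose and 6 fell in KI/+ (53.8%). Of downstream signalling genes 7 of 25 rose and 6 fell in AireKO (52.0%) and 9 rose and 9 fell in KI/+ (72.0%). Among them Nfkb1 was at -1.42 ± 0.10 in AireKO and -1.36 ± 0.10 in KI/+. Of chaperones and proteases 2 of 11 rose and 4 fell in AireKO (54.5%) and 2 rose and 5 fell in KI/+ (63.6%). All values here, CPM aside, are log2 fold changes with SE, named by smallest p among those that passed edgeR's test, and counts beside them are read against the shares of all genes given above for the same comparisons.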

How the data were processed

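RNA was measured in 21 libraries of sorted cells, made from 1.0 ng of RNA (RNA integrity number above 7) and read as paired ends of 150 bp, per the labels' protocols. The authors deposited whole-number counts per gene, not normalised, for 55471 genes. The submitters' processing notes list edgeR 3.38.1, HTSeq 0.11.2, fastp 0.20.0, Picard 2.21.1, STAR 2.7.3a and SAMtools 1.9 with the build mm10 (GRCm38). Not given in the sources used here were how reads with several matches were treated, which strand setting applied and which annotation release was counted. Gene symbols and exon lengths came from GENCODE vM21, and 327 identifiers without a symbol held 0.0139% of counts. All 42 genes passed the low-count filter in each fit, so none was dropped.

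Counts were tested with edgeR 4.0.16 (R 4.3.3, limma 3.58.1): TMM scaling, filterByExpr by group and the quasi-likelihood F test, with Benjamini-Hochberg adjustment over all tested genes and calls at an adjusted p under 0.05. Lymph node contrasts came from a fit of 12 libraries (15884 genes), marrow contrasts from a fit of 9 (15503 genes), and contrasts between the organs and their interactions from a fit of all 21 (17265 genes). The fits share groups, so contrasts that use the same AGF+ libraries are not independent. CPM used TMM effective library sizes over all 21 libraries. Scripts were tested on simulated data. Figures were drawn with matplotlib 3.10.9, and tables were made with scipy 1.17.1, numpy 2.4.6 and pandas 2.3.3 (Python 3.11.15).

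Replicate numbers come from the titles. Same-numbered libraries deviated together in all 3 pairs (r above 0.1) between lymph node AGF+ and AGF- cells (lowest r 0.377 in AireKO, 0.208 in KI/+). They also did between the genotypes (0.146 in AGF+, 0.493 in AGF-, 0.200 in marrow) and between marrow AGF+ cells and total DCs (0.436). Between lymph node and marrow AGF+ cells of the same genotype they did not (0.0811 in AireKO, 0.00692 in KI/+). Across the organs they did only for marrow KI/+ AGF+ cells, with AireKO AGF+ cells (0.141) and with KI/+ AGF- cells (0.187) of the lymph node. A fit with the number as a block was therefore run beside the unblocked one. The other alternatives were DESeq2 size factors, library size alone, no filter, a filter of at least 10 counts in at least 3 libraries, DESeq2 1.42.0's Wald test, omission of all libraries numbered 2 and of each library in turn.

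The 42 genes and all other lists were chosen with earlier results of these data known. All 42 are given by count or range and, by role, with values; of the other lists, up to 4 called genes per list and comparison with the smallest p could be named, and those named are among them. Genes named as lost or gained in an alternative, and the promoters printed, were picked after their values were seen. Promoters are RefSeq windows of 300 bases, found for 33 of the 42 genes.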

Additional observations from a re-analysis of the deposited data

Results flagged for a closer look

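For 22 of the 42 genes the difference between AGF+ cells and their comparison population differed between lymph node and marrow of KI/+ mice by the interaction test itself (edgeR, adjusted p under 0.05). Below 0, with the lymph node difference the smaller one, the log2 interaction was -6.48 for Tlr7, -4.05 for Nlrc3, -2.63 for Cd180 and -2.34 for Dhx58.

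Above 0 stood 18 genes. Among surface receptors and coreceptors the log2 interaction was 3.25 for Tlr4, 2.83 for Cd14, 1.98 for Tlr6, 1.95 for Tlr5, 1.91 for Tlr2, 1.55 for Tlr1 and 0.90 for Ly86. Among endosomal receptors it was 2.27 for Tlr3 and 1.37 for Tlr13. NOD-like receptors gave 2.57 for Nlrc4, 1.33 for Nlrp3, 0.95 for Naip5, 0.91 for Nlrx1 and 0.55 for Naip2. The remaining values were 1.65 for Irak3, 1.04 for Tirap, 0.72 for Mavs and 0.56 for Aim2. The gates of the comparison populations differ between the organs and cannot be told apart from the organ.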

How the results depend on the processing

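Of 137 calls of the 42 genes over the sort, tissue and interaction comparisons, 93 held in all alternatives run, 44 were lost in at least 1, and 0 changed sign. Without the libraries numbered 2, KI/+ lymph node AGF+ cells had 1 gene of the 42 higher and 1942 genes called in all, AireKO cells had 10 of the 42 lower, the sort-by-genotype test called 0 genes, marrow AGF+ cells against total DCs 3858, the marrow genotype contrast 1, and the sort-by-tissue test 1783, with 9 of the 42 above 0. Fewer libraries enter those fits. With no filter on low counts the genotype contrasts called 97 genes in lymph node AGF+ cells, 270 in AGF- cells (1 of the 42, Tlr11, lower) and 26 in marrow AGF+ cells, the interactions of genotype called 14 with sort and 17 with tissue, and members lower were 4 (AireKO) and 5 (KI/+) between the organs and 7 in sort by tissue. DESeq2's Wald test called 4 genes for genotype in lymph node AGF+ cells, 3 in AGF- cells and 2 for sort by genotype. For these settings the cause was not tested.

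With the replicate block the genotype contrasts called 4 genes in lymph node AGF+ cells and 2 in AGF- cells, and sort by genotype 2. In the block fit 4 of the 42 rose and 13 fell in KI/+ and 1 rose and 19 fell in AireKO lymph node AGF+ cells, and 6 rose and 26 fell in marrow AGF+ cells. The added calls are given beside their genes, except Tlr12 (adjusted p = 0.0434) and Irak2 (0.00974) in sort by tissue, and no call of the 42 was lost under the block. Leaving out single libraries gave 1 to 4 of the 42 higher in KI/+ and 1 to 2 in AireKO lymph node AGF+ cells, 2 to 7 genes called for genotype in lymph node AGF+ cells, 1 to 89 in AGF- cells (89 without AireKO AGF- replicate 2) and 1 to 2 for sort by genotype. Scaling by library size alone left 14 of the 42 above 0 and 4 below in sort by tissue, with 38.0% of called genes above 0 against 46.5% with TMM. Depth limits the genes with group sums near 13 counts most, Tlr11 and Tlr8 in marrow AGF+ cells among them.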
